A study of Homo sapiens with 6 samples.

Results

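Heat shock chaperones were followed in SUM159 cells exposed to decitabine. The set was defined by symbol as 10 genes, namely the HSP70 genes HSPA1A, HSPA1B, HSPA2 and HSPA8, the HSP110 gene HSPH1, the small heat shock protein gene HSPB8, the mitochondrial chaperonin genes HSPD1 and HSPE1, the transcription factor gene HSF1 and the cochaperone gene BAG3. An array row stood for a gene when the platform annotation gave that symbol alone, and where a gene had several rows the row with the highest mean over the 6 arrays was used. By this rule 8 of the 10 genes were measured, among 14884 named genes in all, and HSPA8 and HSPE1 had no named row and were not analysed here. The mean level chose the rows, so it is given only as a description. The genes themselves were chosen with results of these arrays known, so their number of calls and their median change are no independent evidence about heat shock genes.

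SUM159 is an established line from a human breast carcinoma that lacks hormone receptors. The 3 decitabine samples came from cells given 1 µM decitabine, a deoxycytidine analogue that traps DNA methyltransferases, for 72 h with fresh medium each day. The 3 untreated samples came from cells kept for 72 h in medium labelled NT. The titles of the untreated samples also carry the 1 µM dose, which was not taken as a treatment because their treatment label and description name none, so that each difference below rests on this reading. The labels name no genetic change, do not say whether NT medium held the solvent, and give no word on whether samples of 1 group were grown apart, so each p-value covers the variation among these samples alone, which could be technical. All values are the deposited array values, read as log2 levels, and each array row has its own scale, so changes are compared between samples within a row, and a level set beside an array median or another row is only a rough description.

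Heat shock proteins are chaperones that keep unfolded proteins from clumping and help them to fold. HSP70 proteins bind exposed hydrophobic stretches and release them in a cycle driven by ATP, HSP110 proteins such as HSPH1 exchange the nucleotide of HSP70, and BAG3 links HSP70 to the small heat shock protein HSPB8 and to autophagy. HSF1 is the main activator of heat shock genes in stressed cells, where it binds repeats of the letters GAA and their reverse complement TTC in alternating order. HSPD1 and HSPE1 form the chaperonin of the mitochondrial matrix.

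The 250 bases upstream of the RefSeq start (build GRCh38.p14) are shown for HSPA1A and HSPA1B, which had the largest changes, for HSPA2, which also rose, and for HSPB8, which shares a motif with HSPA1A and HSPA1B but did not pass the test. Lower case gives the strand of the gene 5′ to 3′, and capitals mark each match to GAANNTTC or TTCNNGAA, an inverted pair of HSF1's repeat. HSPA1A lies at chr6:31815293-31815542 on the plus strand and HSPA1B at chr6:31827488-31827737 on the plus strand. The window of HSPA2 is chr14:64540491-64540740, plus strand, and that of HSPB8 is chr12:119178681-119178930, plus strand.
HSPA1A: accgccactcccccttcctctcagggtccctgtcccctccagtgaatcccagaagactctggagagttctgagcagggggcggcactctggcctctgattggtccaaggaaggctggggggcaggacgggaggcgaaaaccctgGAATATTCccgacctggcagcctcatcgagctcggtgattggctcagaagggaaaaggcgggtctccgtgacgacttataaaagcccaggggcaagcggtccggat
HSPA1B: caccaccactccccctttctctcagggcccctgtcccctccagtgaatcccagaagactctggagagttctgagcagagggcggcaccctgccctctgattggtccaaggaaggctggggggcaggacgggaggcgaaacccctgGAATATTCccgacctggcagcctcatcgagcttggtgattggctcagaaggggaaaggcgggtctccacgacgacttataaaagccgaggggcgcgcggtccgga
HSPA2: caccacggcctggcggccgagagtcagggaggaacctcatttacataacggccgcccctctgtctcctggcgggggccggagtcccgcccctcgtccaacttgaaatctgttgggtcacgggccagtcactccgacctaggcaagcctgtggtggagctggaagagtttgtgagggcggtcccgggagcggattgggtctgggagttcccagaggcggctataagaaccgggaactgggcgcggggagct
HSPB8: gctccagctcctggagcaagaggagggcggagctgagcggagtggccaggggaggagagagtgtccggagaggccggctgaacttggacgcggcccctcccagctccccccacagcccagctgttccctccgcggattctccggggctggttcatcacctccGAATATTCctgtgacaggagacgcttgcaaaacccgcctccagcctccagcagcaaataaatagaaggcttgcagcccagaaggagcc
The windows of HSPA1A and HSPA1B were identical at 235 of 251 aligned positions (93.6%). Both held the same 8 letters, GAATATTC, at 106 to 99 bases upstream of the start in HSPA1A and at 105 to 98 in HSPA1B. Both also held the CCAAT box, read on the other strand, at 2 places and the TATA box letters TATAAA once. HSPB8 had GAATATTC at 88 to 81 bases upstream. HSPA2 had no inverted pair and held the CCAAT box once, on the other strand.

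Promoter windows were read for 7 of the 8 measured genes, and HSF1 was left out of this reading and is named only. These 7 genes had 8 listed starts, since HSPD1 had 2. Of the 8 windows 4 held an inverted pair on either strand, against 11.6% of the 35116 RefSeq windows of the same length, and those of HSPA1A and HSPA1B are near-copies. GAANNTTC alone was in 5.78% of all windows and TTCNNGAA in 6.62%. No inverted pair was found in the windows of HSPH1 and BAG3 or at the first listed start of HSPD1. The second start of HSPD1 held a longer run, 245 to 228 bases upstream, in which the inverted pairs overlap. It is shown with 4 bases on either side, at chr2:197500064-197500089 on the minus strand, because this gene did not pass the test.
HSPD1, second start: cattTTCTGGAAAGTTCTGGAAccga
A run that joins at least 3 repeats in alternating order, GAA and TTC each set apart by NN, occurred in 0.441% of all windows. CpG dinucleotides, the sites that DNA methyltransferases act on, numbered 12 in the window of HSPA1A, 13 in HSPA1B, 12 in HSPB8, 14 in HSPH1, 18 in HSPA2, 25 and 24 at the starts of HSPD1 and 37 in BAG3, against a median of 11 over all windows (quartiles 3 and 23). Of the measured genes whose window was read, BAG3 had the most CpG. The counts of CpG were not tested against the changes. A match describes letters only, and neither HSF1 binding nor DNA methylation was measured in these samples.

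Of the 8 measured genes, HSPA1A, HSPA1B and HSPA2 rose after decitabine, none fell and 5 did not pass the test (limma, adjusted p under 0.05 over all 14884 genes). Over all genes 2.01% were called higher and 1.02% lower, and nothing is read from the members' count against these shares. With the replicate number as a block HSPH1 was called too, which made 4 higher and none lower, where 7.79% of all genes were called higher and 5.37% lower. All 3 decitabine arrays lay above all 3 untreated arrays in HSPA1A, HSPA1B, HSPA2 and HSPH1 and below them in HSF1, and such separation occurred upward in 11.3% and downward in 8.74% of all genes. The median change of the 8 genes was 0.60 on the log2 scale, beside -0.02 over all genes. HSPA1A and HSPA1B share array signal but enter this median, and the calls above, as separate genes. Nothing is read from the median for heat shock genes as a group.

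**Figure D1:**
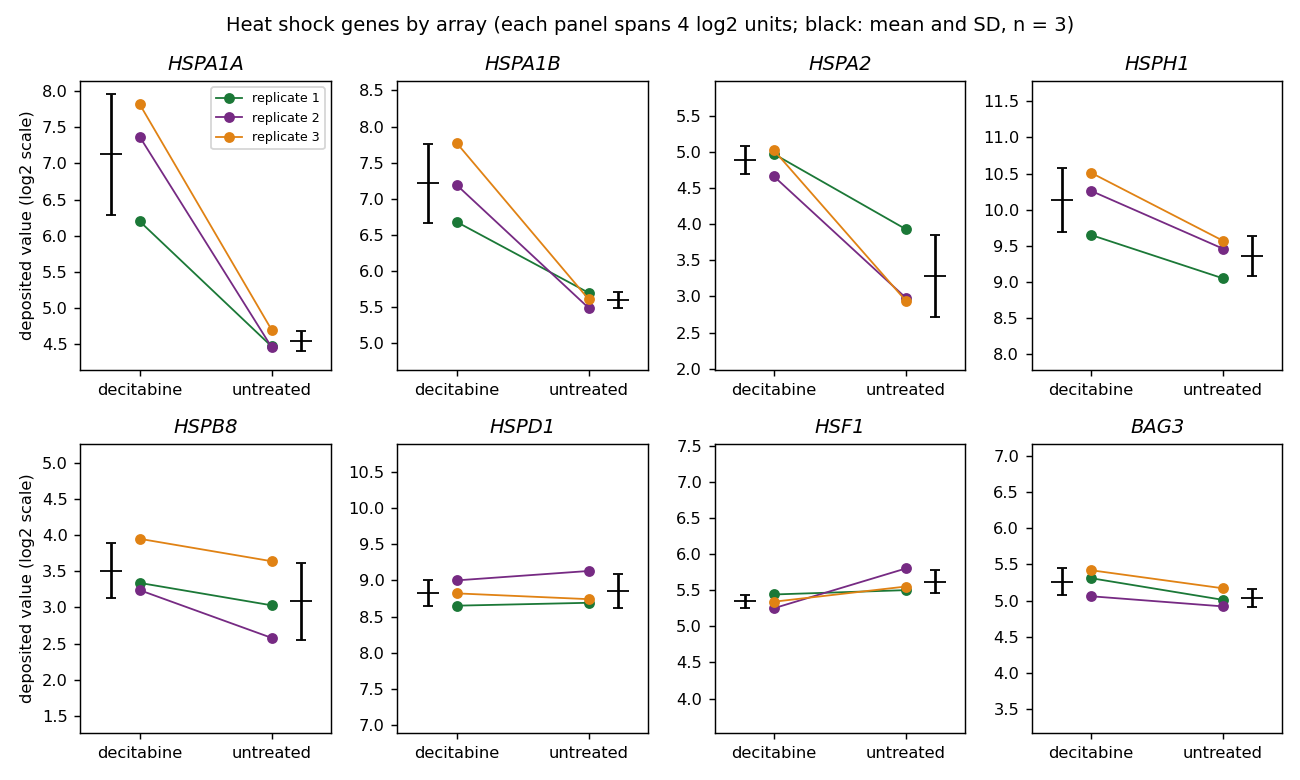
Deposited values (log2 scale, vertical axes) of the 8 measured genes in 3 decitabine arrays (left) and 3 untreated arrays (right). Coloured lines join arrays of the same replicate number, black marks give the mean and SD (n = 3 per group), and each panel spans 4 log2 units. HSPA1A shows the widest gap, with decitabine values of 6.20 to 7.82 above untreated values of 4.46 to 4.70, while the groups overlap in HSPB8, HSPD1 and BAG3.

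HSPA1A and HSPA1B are neighbouring genes on chromosome 6 that encode the stress-inducible HSP70, and their near-identical transcripts share array signal, so the rows cannot be told apart as separate genes. HSPA1A (Entrez Gene 3303) had 6.20, 7.37 and 7.82 in decitabine replicates 1, 2 and 3, against 4.47, 4.46 and 4.70 in untreated replicates 1, 2 and 3. The untreated arrays lay close together and the decitabine arrays were spread widely, with replicate 1 the lowest. Means were 7.13 ± 0.84 with decitabine and 4.54 ± 0.14 without (SD, n = 3 each). The change was 2.59 on the log2 scale (SE 0.39), which is 6.01-fold. The adjusted p by limma was 0.0138, and 0.00467 with the replicate block. Of all genes 0.296% had a larger positive change. The genes were chosen with results of these arrays known, so this rank is a description only. The call was lost without decitabine replicate 2 (adjusted p = 0.0692), without untreated replicate 2 (0.0687) and without both arrays of replicate 2 (0.325) or of replicate 3 (0.182), and with the block and without replicate 1 (0.106). The adjusted p ranged from 1.11e-04 to 0.325 over 18 alternatives.

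HSPA1B (3304) had 6.68, 7.19 and 7.77 in decitabine replicates 1, 2 and 3, and 5.70, 5.49 and 5.61 in untreated replicates 1, 2 and 3. Here too every decitabine array was above every untreated array and decitabine replicate 1 was the lowest of its group. The mean was 7.21 ± 0.55 with decitabine and 5.60 ± 0.11 without (SD, n = 3 each). The change was thus 1.61 (SE 0.29) or 3.06-fold, at an adjusted p by limma of 0.0267, and 0.0108 with the replicate block. This row was the one of highest mean for HSPA1B (6.41 over the 6 arrays, the next row having 5.97), and it also had the smallest change of the gene's 5 rows. With the mean of the 5 rows the change was 2.41, or 5.33-fold (adjusted p = 0.0149). The call was lost without decitabine replicate 2 (adjusted p = 0.111) or 3 (0.078), without untreated replicate 2 (0.127) or 3 (0.0943), without both arrays of replicate 2 (0.459) or of replicate 3 (0.26), with the block and without replicate 1 (0.107) and with median centring (0.0579), within a range of 4.91e-04 to 0.459 over 18 alternatives.

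The other rows of both genes moved the same way. HSPA1A also had 5 rows, of which 3 held identical values on all 6 arrays, so they count as 1 measurement. Changes ran from 2.46 to 2.65 over the rows of HSPA1A and from 1.61 to 2.85 over those of HSPA1B. In all 5 rows of each gene the 3 decitabine arrays lay above the 3 untreated arrays. Fitted over all named rows, adjusted p was 0.0138 to 0.022 for the rows of HSPA1A and 0.0114 to 0.0285 for those of HSPA1B. The HSPA1B row of highest mean had decitabine values of 6.68 to 7.77, where its other rows had 5.80 to 7.88, and untreated values of 5.49 to 5.70, where its other rows had 4.01 to 4.92.

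**Figure D2:**
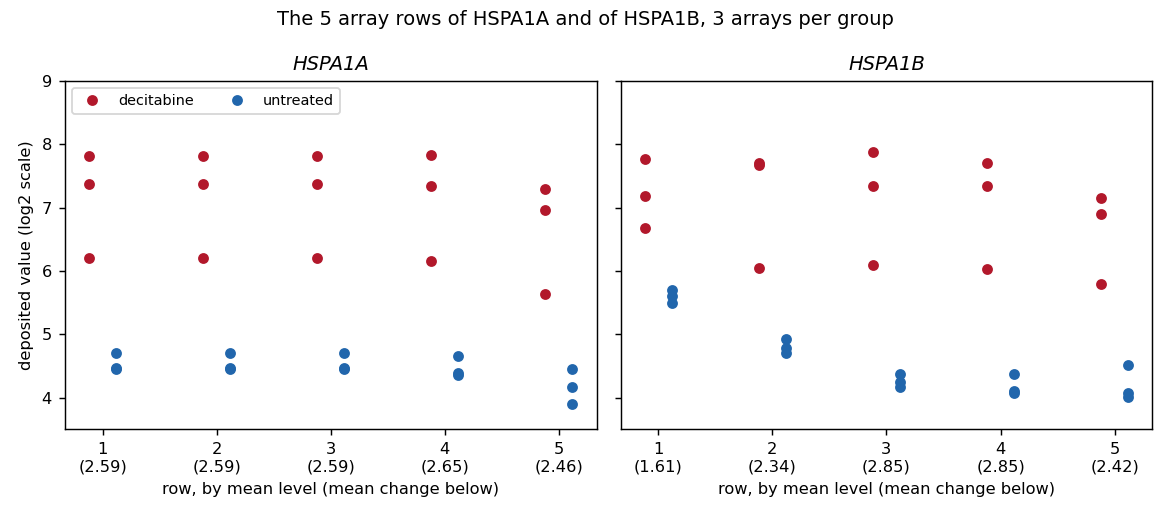
Deposited values (log2 scale, vertical axis) in the 5 array rows of HSPA1A (left panel) and of HSPA1B (right panel), ordered by mean level along the horizontal axis, with the mean change in brackets. Each red point is a decitabine array and each blue point an untreated array (3 of each per row). Changes run from 2.46 to 2.65 for HSPA1A and from 1.61 to 2.85 for HSPA1B, and the first 3 rows of HSPA1A are identical.

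HSPA2 (3306), an HSP70 known for its role in male germ cells, had 4.97, 4.66 and 5.02 in decitabine replicates 1, 2 and 3, against 3.93, 2.98 and 2.94 in untreated replicates 1, 2 and 3. In contrast to HSPA1A the wider spread was among the untreated arrays, where replicate 1 was the highest. Means were 4.88 ± 0.20 with decitabine and 3.28 ± 0.56 without (SD, n = 3 each). They gave a change of 1.60 (SE 0.30), which is 3.03-fold, at an adjusted p by limma of 0.0326, and 0.00849 with the replicate block. The untreated values were near the array medians over all features (3.03, 2.42 and 2.29 in untreated replicates 1, 2 and 3), and background was not measured here, so the size of this rise holds for the deposited values only. The call was lost without decitabine replicate 1 (adjusted p = 0.0876), 2 (0.0977) or 3 (0.127), without untreated replicate 2 (0.15) or 3 (0.119), without both arrays of replicate 2 (0.442) or of replicate 3 (0.374) and with the block and without replicate 1 (0.106), within a range of 5.73e-04 to 0.442 over 18 alternatives.

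HSPH1 (10808), the HSP110 that serves as nucleotide exchange factor of HSP70, had 9.65, 10.26 and 10.51 in decitabine replicates 1, 2 and 3, against 9.05, 9.46 and 9.57 in untreated replicates 1, 2 and 3. Replicate 1 was the lowest in both groups, and the groups did not overlap. The change was 0.78 (SE 0.28), which is 1.72-fold, at an adjusted p by limma of 0.239. With the replicate number as a block the SE was 0.13 and the adjusted p 0.0171, and with an intensity trend in the variance the adjusted p was 0.0244. HSPH1 passed in 3 of 18 alternatives, these and the block with median centring (adjusted p = 0.00753), and its adjusted p reached 1 without the arrays of replicate 2.

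Neither HSPB8 nor its partner BAG3 passed the test in any fit. HSPB8 (26353), a small heat shock protein, had 3.34, 3.24 and 3.95 in decitabine replicates 1, 2 and 3, against 3.03, 2.58 and 3.64 in untreated replicates 1, 2 and 3. The groups overlapped, because replicate 3 was the highest in both, and the change was 0.43 (SE 0.32, limma adjusted p = 0.754, and 0.0998 with the block). BAG3 (9531), the cochaperone that joins HSPB8 to HSP70, had 5.31, 5.06 and 5.42 with decitabine and 5.01, 4.92 and 5.17 in untreated arrays, in the order of replicates 1, 2 and 3. The groups overlapped here as well, with a change of 0.23 (SE 0.20, limma adjusted p = 0.836).

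HSPD1 (3329), the HSP60 chaperonin of mitochondria, had 8.65, 9.0 and 8.82 in decitabine replicates 1, 2 and 3, against 8.69, 9.13 and 8.74 in untreated replicates 1, 2 and 3. The groups overlapped throughout, and replicate 2 was the highest in both. Its change was -0.03 (SE 0.22, limma adjusted p = 1). HSF1 (3297), the activator of the heat shock genes, had 5.44, 5.25 and 5.34 in decitabine replicates 1, 2 and 3, against 5.50, 5.80 and 5.55 in untreated replicates 1, 2 and 3. All decitabine values were below all untreated values, by a mean difference of -0.27 (SE 0.20), and the limma adjusted p was 0.717. The level of HSF1 transcript says nothing on the activity of the protein, which was not measured.

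The replicate numbers in the sample titles pair the arrays, and in all 3 pairs the decitabine array was higher than its untreated partner in HSPA1A, HSPA1B, HSPA2, HSPH1, HSPB8 and BAG3, and lower in HSF1. Over all genes 22.9% were higher and 21.8% lower in all 3 pairs. In pairs 1, 2 and 3 the differences were 1.73, 2.91 and 3.12 for HSPA1A, and 0.98, 1.70 and 2.16 for HSPA1B. They were 1.04, 1.68 and 2.08 for HSPA2, and 0.60, 0.80 and 0.94 for HSPH1. Pair 1 had the smallest difference in each of these 4 genes. For HSPB8 the differences were 0.31, 0.66 and 0.31, and for BAG3 0.30, 0.14 and 0.25, so this order was not shared by every gene.

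Both arrays of replicate 1 also had higher medians over all features, 2.98 with decitabine and 3.03 without, where the other arrays had 2.40 and 2.37 with decitabine and 2.42 and 2.29 without. The part of this in the smaller differences of pair 1 was not tested. With both arrays of replicate 1 left out, the changes were 3.02 for HSPA1A, 1.93 for HSPA1B and 1.88 for HSPA2, and all 3 passed the test (limma adjusted p of 0.00857 to 0.0269). HSPH1 then changed by 0.87 (adjusted p = 0.111). With the replicate block and these arrays left out, a fit of 4 arrays in which none of the 14884 genes was called, the adjusted p was 0.106 for HSPA1A, 0.107 for HSPA1B and 0.106 for HSPA2. With the arrays of replicate 2 or of replicate 3 left out no member was called, and 18 and 17 of all genes were.

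**Figure D3:**
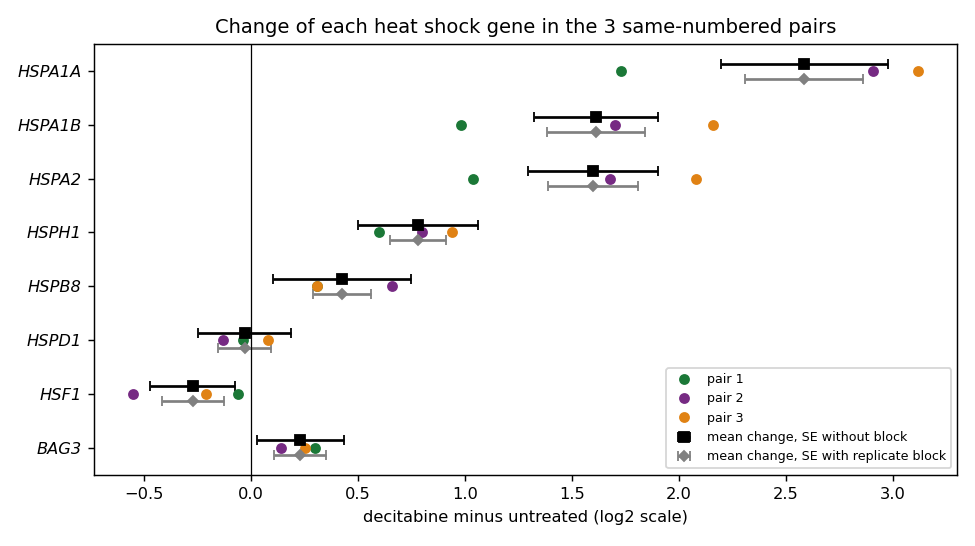
Decitabine minus untreated (log2 scale, horizontal axis) for the 8 measured genes. Coloured circles are the 3 same-numbered pairs, black squares the mean change with the SE of the fit without a block, and grey diamonds the same mean with the SE under the replicate block. Pair 1 is the lowest in HSPA1A, HSPA1B, HSPA2 and HSPH1, from 1.73 for HSPA1A to 0.60 for HSPH1, and the pairs of HSPD1 lie on both sides of 0.

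Other genes of the chaperone network had changes of -0.64 to 0.92 on the log2 scale. The 11 lists drawn up by family held 184 genes beside the members, of which 56 were measured, in 10 of the lists. By limma none of the 56 passed the test without a block. At an unadjusted limma p under 0.05, 9 were higher and 1 lower, beside 1210 higher and 862 lower of all 14884 genes. Both directions together made 17.9% of the 56 and 13.9% of all genes. With the replicate block 9 of the 56 were higher and 2 lower, where 7.79% of all genes were higher and 5.37% lower. Of the 56 genes 37 had a positive change (66.1%, beside 47.7% of all genes), with a median of 0.23. In 19 genes the decitabine arrays all lay above the untreated arrays, and in 5 below, beside 11.3% and 8.74% of all genes. None of the 38 listed proteasome subunits had a named row, and the same held for HSPA5, HSP90AA1, HSP90AB1 and DNAJB1, which were not analysed here.

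Heat-inducible HSF1 targets other than the members all had positive changes in the 8 measured genes, with a median of 0.43. With the block 2 were called, where 7.79% of all genes were called higher, and none was called without it. With the dimmer 50% of genes left out, 6 of the 8 remained and 1 was called. STIP1, the cochaperone that carries clients between HSP70 and HSP90, had 7.58, 7.46 and 7.66 in decitabine arrays, against 6.81, 6.47 and 6.66 in untreated arrays. The groups stood clearly apart, with a change of 0.92 (SE 0.20) and a limma adjusted p of 0.0529, or 0.00938 with the block. UBB, a precursor of ubiquitin, changed by 0.73 (limma adjusted p = 0.169, and 0.0204 with the block). It had 3.77, 3.97 and 3.59 with decitabine and 3.22, 3.21 and 2.72 without. These untreated values were near the array medians over all features, and UBB was left out with the dimmer 50% of genes. HSPB1, which encodes the small heat shock protein HSP27, had 8.69, 9.46 and 9.57 with decitabine and 8.56, 8.87 and 9.04 without, and its change of 0.42 did not pass (adjusted p = 0.684, and 0.122 with the block). HSPA6, the HSP70 that is strictly stress-inducible, had a change of 0.55 (SE 0.37) at an adjusted p of 0.68, or 0.164 with the block, and was named after its value was seen.

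Among the 10 other HSP70 and HSP110 genes measured, 2 were called higher with the block and none without, and the median change was 0.18. HSPA12A, a distant HSP70 relative, changed by 0.75 (adjusted p = 0.106, and 0.018 with the block), but its row of lowest mean gave 0.14. HSPA14, a ribosome-associated HSP70, changed by 0.72 (adjusted p = 0.102, and 0.0198 with the block). HSPA9, the mitochondrial HSP70, had a change of -0.44 with the groups apart (adjusted p = 0.407, and 0.0726 with the block), and was named after its value was seen. Besides STIP1, the 9 measured genes of HSP90 and its cochaperones held 1 call under the block, TRAP1, the mitochondrial HSP90, with a change of -0.51 (adjusted p = 0.441, and 0.0429 with the block).

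Of 5 measured heat shock factors and HSF-binding genes, 2 were called higher with the block, where 7.79% of all genes were. All 5 changes were positive (median 0.41), but with the dimmer 50% of genes left out only 2 of the 5 remained and none was called. The calls with the block were HSF2BP and HSBP1L1. HSF2BP, an HSF2-binding protein of meiotic recombination, changed by 0.79 (limma adjusted p = 0.186, and 0.0262 with the block). It had 3.38, 3.61 and 3.64 with decitabine and 2.31, 2.78 and 3.16 without. These untreated values were near the array medians over all features, and HSF2BP was left out with the dimmer 50% of genes. HSBP1L1, a relative of the HSF1-binding protein HSBP1, changed by 0.72 (0.234, and 0.0214 with the block). The list of CCT chaperonin and prefoldin subunits had 6 measured genes, all of them of prefoldin, which hands unfolded actin and tubulin to CCT, and no CCT subunit was measured. PFDN6 changed by 0.79 (0.0899, and 0.0123 with the block) and PFDN2 by -0.64 (0.134, and 0.0274 with the block). Prefoldin subunits thus had calls in both directions under the block. In the 9 mitochondrial chaperones and proteases, the protease subunit SPG7 changed by 0.54 (0.247, and 0.0483 with the block) and TRAP1 as given above, with a list median of -0.23.

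In the endoplasmic reticulum list, 1 of 6 measured genes was called with the block, the chaperone component SDF2L1, at 0.72 (adjusted p = 0.111, and 0.0241 with the block), and the list median was 0.21. No gene was called in either fit among 3 measured J-domain cochaperone genes, where SEC63, of the translocation channel, had the largest change at -0.38 (adjusted p = 0.497). The same held for 5 other BAG and HSP70 cochaperones, where ST13 had the largest at 0.45 (adjusted p = 0.704), and for 3 other small heat shock proteins. Some genes stand in more than 1 list, so the counts of the lists are not independent. Each count with the block stands beside 7.79% of all genes called higher and 5.37% called lower.

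**Figure D4:**
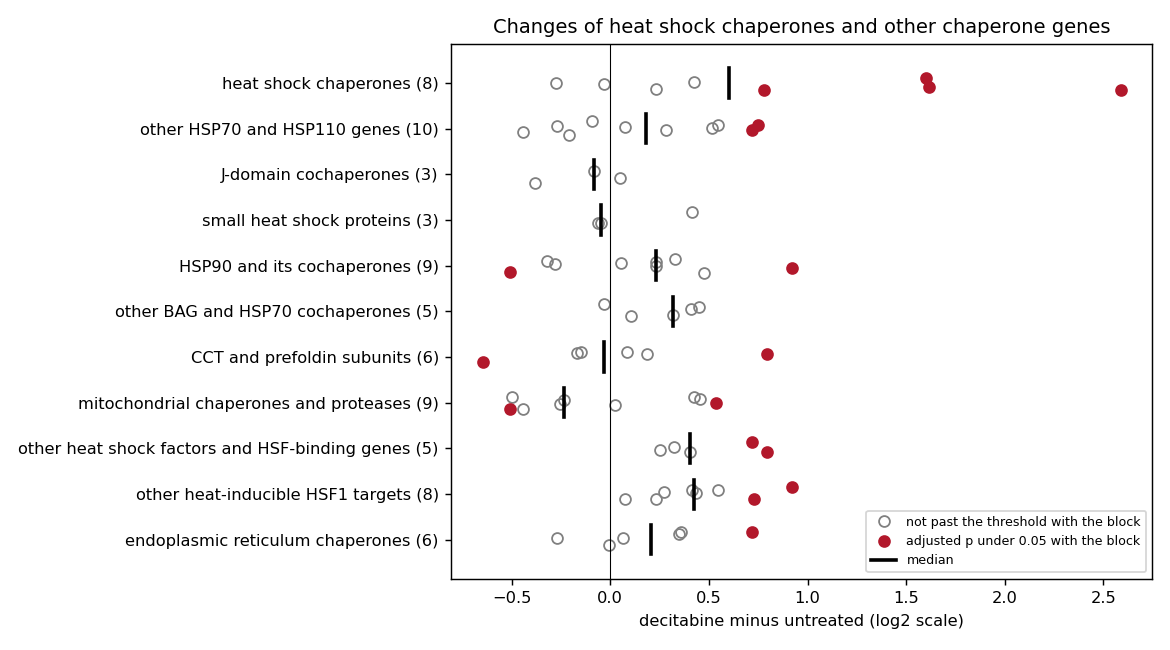
Decitabine minus untreated (log2 scale, horizontal axis) for the 8 heat shock chaperones and the genes of the 10 measured lists, with the number of measured genes in brackets. Each circle is a gene, filled where the adjusted p was under 0.05 with the replicate block, and vertical bars are medians. HSPA1A, at 2.59, lies farthest to the right, and genes of the lists lie between -0.64 and 0.92.

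The genes nearest to HSPA1A in pattern were sought by the root mean square difference over the 6 arrays, with each gene centred on its own mean. TMT1A, a thiol methyltransferase, was the nearest (root mean square difference 0.247), followed by SAA1, an acute-phase protein (0.274). TMT1A had 5.44, 6.40 and 6.41 with decitabine and 3.26, 3.77 and 3.66 without. SAA1 had 5.76, 7.16 and 7.56 with decitabine and 4.35, 4.71 and 5.02 without. Both were lowest in decitabine replicate 1 within that group, as HSPA1A was, which largely follows from how they were chosen. Likeness over 6 arrays in 2 groups is a description of these samples only.

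Markers of the line were read in the same arrays. VIM, CD44, KRT18, MKI67 and EGFR had values of 6.14 to 10.36, above the array medians, and ESR1 and PGR, receptors that this type of carcinoma lacks, had 1.50 to 2.95. ERBB2, PTPRC, CD3E, CDH5 and ADIPOQ had no named row. EGFR had 7.06, 7.15 and 7.01 with decitabine and 8.08, 8.30 and 8.29 without, and fell by 1.15 on the log2 scale (limma adjusted p = 0.0195). VIM, CD44, KRT18 and MKI67 did not pass the test. Markers of other cell types lay at 2.32 to 3.34 for CD14 of myeloid cells, 1.55 to 2.83 for PECAM1 of endothelium and 2.18 to 3.37 for PLIN1 of adipocytes. CD14 was 3.15, 3.08 and 3.34 with decitabine and 2.32, 2.60 and 2.50 without (change 0.72, adjusted p = 0.115), and the part of EGFR and CD14 in the changes of the heat shock genes was not tested.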

How the data were processed

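Total RNA from 6 samples was measured on single-colour arrays after biotin labelling. Per the submitters' processing notes, the authors made the deposited values in the Transcriptome Analysis Console, and these were read as log2 levels because they run from 0.17 to 12.89 with 2 decimals. Log base, version, normalization, filters and build are unstated in those notes and the labels. The table held 48226 features, of which 16098 carried a single gene symbol and 32128 were unnamed here. All 16098 matched RefSeq by Entrez ID, and 779 of the 14884 genes had several features.

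Groups and replicate numbers came from the sample titles. Decitabine was compared with untreated by limma 3.58.1 in R 4.3.3 (lmFit, eBayes, two-sided, no covariate, Benjamini-Hochberg over 14884 genes, adjusted p under 0.05), without further normalization. Changes are decitabine minus untreated. The fit was run on simulated data only to check that planted changes were recovered, with no limit set on false calls. The titles' numbers were taken as pairs. Deviations from group means correlated at 0.558 to 0.682 between same-numbered arrays and at -0.483 to -0.006 between others. Such deviations cancel out within a group, so positive values between same-numbered arrays force negative ones elsewhere. The contrast is thus partly fixed by the calculation. The main fit ignores the pairs. A fit with the replicate number as a block is given for each member or listed gene called in either fit, and for some others. Whether pairs share culture or array handling was not tested. The members, lists and tests were chosen with earlier results of these data known. Named were all measured members, in each list up to 2 rises and 2 falls that passed in either fit, or else the gene of largest change, and the 3 genes nearest to HSPA1A, of which the third is not reported here. Promoter sequences are RefSeq's, build GRCh38.p14. The number of arrays limits the precision.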

Additional observations from a re-analysis of the deposited data

How the results depend on the processing

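Alternatives were a replicate block, quantile normalization, median centring, the dimmer 50% of genes left out, the mean of a gene's rows, an intensity trend, and single arrays or pairs left out. A fit on the row of lowest mean, the block without replicate 1 and the block with median centring were added after seeing the data. Of the 8 genes, 2 to 4 were called under the alternatives that kept all arrays. Without a single array 0 to 3 were called, and without a pair 0 to 3. None was called without decitabine or untreated replicate 2, where 3 and 4 of the 8 had an unadjusted limma p under 0.05. Over all 14884 genes 1517 and 1500 had such a p in these fits. With the block and without replicate 1, 0 were called among the 8 and among all 14884 genes, in a fit of 4 arrays. There 4 of the 8 had an unadjusted limma p under 0.05, beside 3514 of all 14884 genes. Nothing is read from these unadjusted counts. The replicate block made HSPH1 the only further call among the 8. HSPD1, at -0.03, ranged from -0.12 to 0.11 without single arrays, and turned to 0.057 without decitabine replicate 1, 0.11 without untreated replicate 2 and 0.020 without the pair of replicate 2. No other measured member changed sign under any alternative. Of the 56 other chaperone genes, 0 were called by limma in the main comparison. The count was 11 with the replicate block, 4 with quantile normalization, 5 with an intensity trend and 11 with the block and median centring. With the dimmer 50% left out it was 6, of only 47 genes tested. None was called where arrays or pairs were left out. The cause of these differences was not tested. Over all genes 451 were called, 1959 with the block, 938 with quantile normalization and 1162 with the trend. With the dimmer 50% left out 989 were called, of 7442 genes tested. Single arrays left out gave 130 to 477, and pairs 17 to 388. HSPB8, HSPA6, UBB and HSF2BP fall under the filter on dim genes and have no value there. Signal over background was not used here.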
